A study of Mus musculus with 15 samples.

Results

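Hprt, Gusb and B2m are 3 genes that laboratories often use as internal references for liver RNA, and the arrays of this study carry a probe for each of them, printed as 20 spots. The 3 probes were found by the RefSeq mRNA identifiers that the array files give for mouse Hprt, Gusb and B2m. They are 3 of 60915 probes, and 60 of 61200 probe spots on an array. All 3 were measured in every sample and passed the filter on dim probes.

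A reference gene is one whose RNA is taken to stay level between conditions, so that the RNA of other genes can be expressed relative to it. Hprt encodes hypoxanthine-guanine phosphoribosyltransferase, which returns hypoxanthine and guanine to the purine nucleotide pool. Gusb encodes beta-glucuronidase, a lysosomal hydrolase that removes glucuronic acid from glycosaminoglycans. B2m encodes beta-2-microglobulin, the light chain of MHC class I at the cell surface, and is induced by interferons. Ischaemia degrades adenine nucleotides to hypoxanthine, and reperfusion of liver brings inflammatory signalling, so the textbook roles of Hprt and B2m touch the injury studied here.

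Total RNA from the liver of C57BL/6 mice was labelled with Cy3 and hybridised to 15 one-colour arrays for mRNAs and long non-coding RNAs, 5 per group. All animals were anaesthetised with sodium pentobarbital and had a midline laparotomy. Sham animals had the hilum of the liver handled with no vessel clamped. Ischaemia-reperfusion (I/R) animals had the left lateral and median lobes, 70% of the liver, clamped for 75 min and reperfused for 2 h. Preconditioned (IPC) animals went through 10 min of clamping and 10 min of flow first, and then through the same 75 min and 2 h. The design text gives 18 mice, 6 per group, and no label ties an array to a mouse, so every p below measures the spread between arrays, which may be technical. None of the hepatocyte, macrophage, neutrophil, lymphocyte, endothelial, stellate or bile duct markers listed for the check has a named probe, so the tissue label was not checked.

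The bases just before each transcription start are shown because the 3 genes are used as references on the assumption that their RNA stays level, and their upstream stretches differ in kind. The arrays do not measure transcription. The sequences are RefSeq's, from GRCm38.p6, 250 bases each, and capitals mark the motif matches described next. That of Hprt is chrX:52987828-52988077 on the plus strand, that of Gusb is chr5:130003050-130003299 on the minus strand and that of B2m is chr2:122147437-122147686 on the plus strand.
Hprt: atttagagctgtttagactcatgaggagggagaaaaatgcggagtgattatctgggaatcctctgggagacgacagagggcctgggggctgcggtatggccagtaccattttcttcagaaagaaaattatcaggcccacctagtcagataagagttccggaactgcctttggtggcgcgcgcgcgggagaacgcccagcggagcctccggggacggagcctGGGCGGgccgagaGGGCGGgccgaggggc
Gusb: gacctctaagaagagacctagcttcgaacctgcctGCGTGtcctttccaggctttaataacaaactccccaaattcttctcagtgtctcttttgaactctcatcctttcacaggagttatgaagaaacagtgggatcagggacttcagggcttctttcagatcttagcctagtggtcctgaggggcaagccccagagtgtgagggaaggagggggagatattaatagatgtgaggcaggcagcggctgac
B2m: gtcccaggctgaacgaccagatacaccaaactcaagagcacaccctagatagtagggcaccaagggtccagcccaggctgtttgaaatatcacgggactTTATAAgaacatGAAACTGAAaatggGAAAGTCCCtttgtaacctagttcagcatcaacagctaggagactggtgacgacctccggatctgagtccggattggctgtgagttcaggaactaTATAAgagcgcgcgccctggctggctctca

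The stretch of Hprt held 17 CG pairs, 59.6% G and C, and 2 matches to the GC box GGGCGG close to the start, from base 29 to 24 and from base 16 to 11 before it. That of B2m held 8 CG pairs, with 1 match each to GAAANNGAA (the core of an interferon-stimulated response element) and GGGACTTTC (of a kappaB element), 131 to 139 and 117 to 125 bases before the start. It also held 3 matches to TATAA, 1 of them 26 to 30 bases before the start and the other 2 overlapping each other on opposite strands. That of Gusb held 3 CG pairs and 1 match to GCGTG, which with ACGTG forms the core of the hypoxia response element. TGACGTCA (the cAMP response element) and ACGTG matched in none of the 3. Both strands were searched, and among 32851 promoter stretches of the same length GGGCGG matched in 32.7%, GAAANNGAA in 7.13%, GGGACTTTC in 0.289%, TATAA in 22.8%, GCGTG in 28.2%, ACGTG in 16.6% and TGACGTCA in 1.55%. The motifs were chosen with the sequences at hand, and a match describes letters, not a bound site.

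Scan times divide the 15 arrays into 2 slides. All sham arrays and the first 3 I/R arrays were on slide 2, the other 2 I/R arrays and all IPC arrays on slide 1, and no slide held both sham and IPC. A header tag was read as the row and column of an array on its slide: sham arrays 1 to 4 lay in row 1 of slide 2, and sham array 5 with I/R arrays 1 to 3 in row 2. On slide 1, I/R arrays 4 and 5 with IPC arrays 1 and 2 lay in row 1, and IPC arrays 3 to 5 in row 2. The 75th percentile of the signal was 8.08 to 8.31 (log2) on slide 2 and 8.48 to 8.78 on slide 1. From 49.98% to 59.6% of probes were well above background.

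The first question is whether the 3 genes kept their level when the liver was clamped and reperfused. No change of Hprt, Gusb or B2m between any groups passed the test. All 9 other reference genes with a named probe passed it in I/R against sham, where 31% of all tested probes did. Levels are given in log2 units as the signal minus the 75th percentile of its array, averaged over 15 to 20 spots of a probe, and are compared between arrays only, never between genes. Liver is a mixture, and fewer cells of a type and less RNA per cell cannot be told apart in such values.

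Hprt stood at 6.14, 6.23, 6.25, 6.19 and 6.22 on sham arrays 1 to 5, a mean of 6.21 ± 0.0424 (SD, n = 5). On the I/R arrays it stood at 6.35, 6.37, 6.45, 6.20 and 6.32, a mean of 6.34 ± 0.0905 (SD, n = 5). On the IPC arrays it stood at 6.34, 6.37, 6.21, 6.36 and 6.30, a mean of 6.32 ± 0.0673 (SD, n = 5). In both groups with ischaemia 4 of 5 arrays lay above every sham array, and 1 array each, I/R array 4 and IPC array 3, lay among them. The I/R minus sham difference was 0.13 (SE 0.0520, 95% interval 0.021 to 0.24), a ratio of 1.096, with a limma adjusted p of 0.0674. IPC minus sham was 0.11 (interval -0.0020 to 0.22, adjusted p 0.133), and IPC minus I/R was -0.023 (interval -0.13 to 0.088, adjusted p 0.855). The purine salvage gene thus missed the threshold of 0.05 in each contrast, with the smallest p in I/R against sham.

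Gusb stood at 3.10, 3.19, 3.22, 3.13 and 3.21 on sham arrays 1 to 5, a mean of 3.17 ± 0.0514 (SD, n = 5). On the I/R arrays it stood at 3.20, 3.23, 3.31, 2.94 and 3.07, a mean of 3.15 ± 0.144 (SD, n = 5). On the IPC arrays it stood at 3.02, 3.05, 2.99, 3.17 and 3.13, a mean of 3.07 ± 0.0751 (SD, n = 5). The groups overlapped, and the I/R arrays held both the highest and the lowest value of the lysosomal gene, array 3 on slide 2 and array 4 on slide 1. I/R minus sham was -0.019 (SE 0.0661, 95% interval -0.16 to 0.12, adjusted p 0.861), IPC minus I/R was -0.081 (interval -0.22 to 0.061, adjusted p 0.554) and IPC minus sham was -0.10 (interval -0.24 to 0.042, adjusted p 0.290). As ratios, the intervals against sham ran from 0.894 to 1.09 in I/R and from 0.846 to 1.03 in IPC. The sign in I/R against sham was the opposite under quantile normalization (0.056), with the percentile of only those probes that every array detected (0.046), with the other 12 named genes as scale (0.081) and with slide as a fixed or random block (0.076 and 0.031).

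B2m stood at 8.18, 8.23, 8.27, 8.17 and 8.05 on sham arrays 1 to 5, a mean of 8.18 ± 0.0844 (SD, n = 5). On the I/R arrays it stood at 7.99, 8.005, 8.08, 8.17 and 8.30, a mean of 8.11 ± 0.128 (SD, n = 5). On the IPC arrays it stood at 8.18, 8.20, 8.02, 8.15 and 8.07, a mean of 8.12 ± 0.0757 (SD, n = 5). Again the groups overlapped, and within I/R the 2 arrays of slide 1 lay above the 3 arrays of slide 2. The interferon-inducible gene had an I/R minus sham difference of -0.071 (SE 0.0664, 95% interval -0.21 to 0.071, adjusted p 0.454), an IPC minus I/R difference of 0.013 (interval -0.13 to 0.16, adjusted p 0.941) and an IPC minus sham difference of -0.058 (interval -0.20 to 0.084, adjusted p 0.564). Against sham its ratio intervals ran from 0.862 to 1.05 in I/R and from 0.870 to 1.06 in IPC. Neither reached the ratio of Actb in I/R against sham (1.53). They did include smaller changes that passed, such as Tbp in I/R (0.878) and Ppia in IPC (0.875). The sign in I/R against sham was the opposite under quantile normalization (0.019) and with the other 12 named genes as scale (0.029).

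**Figure D1:**
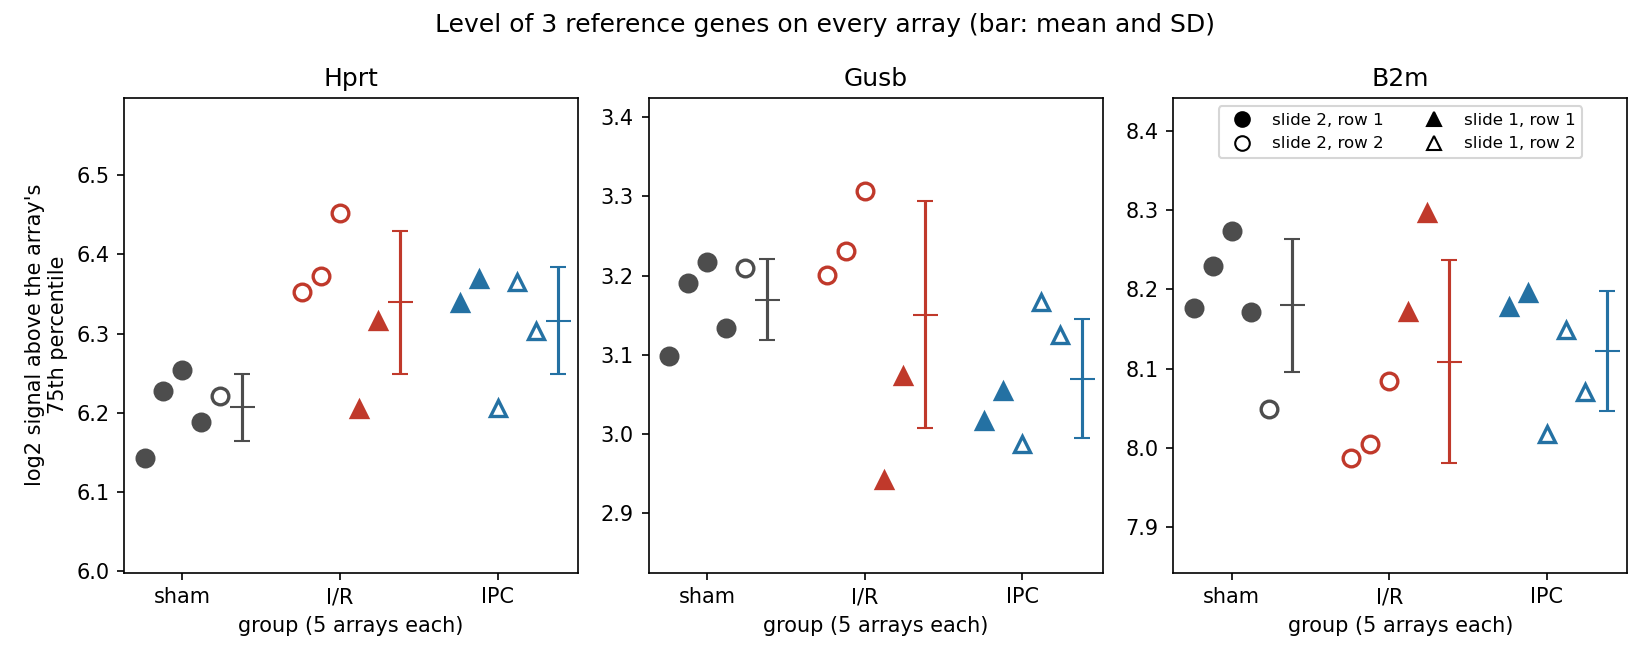
Log2 signal above the 75th percentile (y axis) of Hprt, Gusb and B2m on each of 5 sham, 5 I/R and 5 IPC arrays (x axis), circles for slide 2, triangles for slide 1, filled for row 1 and open for row 2, with bars for mean and SD. Groups overlap for every gene, and the I/R arrays of the 2 slides do not overlap for any of the 3.

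Of the 3 genes, 0 passed in I/R against sham, where 31% of 34985 tested probes did, 0 in IPC against I/R (7.86% of tested probes) and 0 in IPC against sham (30.1%). The unadjusted limma p of Hprt was 0.0230 for I/R minus sham and 0.0538 for IPC minus sham. The smallest for Gusb was 0.153 and the smallest for B2m 0.301. The moderated F test over all 3 groups passed for none of them (adjusted p 0.112 for Hprt, 0.433 for Gusb, 0.642 for B2m), against 36.2% of probes. For each gene the groups overlapped in each contrast. Probes whose groups did not overlap made up 23.2%, 8.37% and 27.4% of those tested in I/R against sham, IPC against I/R and IPC against sham.

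Of 18 other genes in use as references, 9 have a named probe, and all 9 changed in I/R against sham: Actb, Gapdh, Ppia, Rpl13a, Tbp, Hsp90ab1, Tfrc, Tuba1b and Nono. In I/R against sham 2 of the 9 rose (Actb by 0.62, Tfrc by 0.27) and 7 fell, from Tbp at -0.19 to Tuba1b at -0.45, with groups that did not overlap for any of the 9. Whether these changes differ from those of Hprt, Gusb and B2m as sets was not tested. Their median difference was -0.22, beside -0.031 over all tested probes. In IPC against sham 2 rose and 5 fell, and in IPC against I/R 2 rose and none fell. Of the lists on purine salvage (13 genes), lysosomal hydrolases (16) and MHC class I with the interferon response (13), no gene has a named probe, so the pathways around Hprt, Gusb and B2m are not described here.

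The call on Hprt depended on how the arrays were scaled and on the slide, while those on Gusb and B2m did not. Hprt passed in I/R against sham with the percentile of the detected probes (0.20, adjusted p 0.00170), with quantile normalization (0.22, 0.00336), with the other 12 named genes as scale (0.23, 0.00112), with normexp background correction (0.15, 0.0118) and with trended, robust moderation (0.13, 0.0405). It also passed with slide as a fixed block (0.19, 0.0138) or a random block (0.16, 0.0277), within slide 2 alone (0.19, 0.0281), and without I/R array 4 (0.17, 0.0172). The share of all probes that passed under these 9 was 32.8%, 29.7%, 31.3%, 30.1%, 31.4%, 35.1%, 32.4%, 28.9% and 31.8%, in the same order. Hprt missed the threshold after scaling to the median (0.11, adjusted p 0.385). Of 28 alternatives 10 gave a call, the remaining 1 being slide and row as blocks, and the difference was above 0 in all 28, from 0.10 to 0.23. In IPC against sham Hprt passed in 4 of 27, namely the detected-probe percentile (0.18), quantile normalization (0.21), normexp (0.17) and slide as a fixed block (0.24), where 32%, 28.8%, 32.1% and 20.9% of probes passed. Gusb and B2m passed in no contrast under any alternative run.

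**Figure D2:**
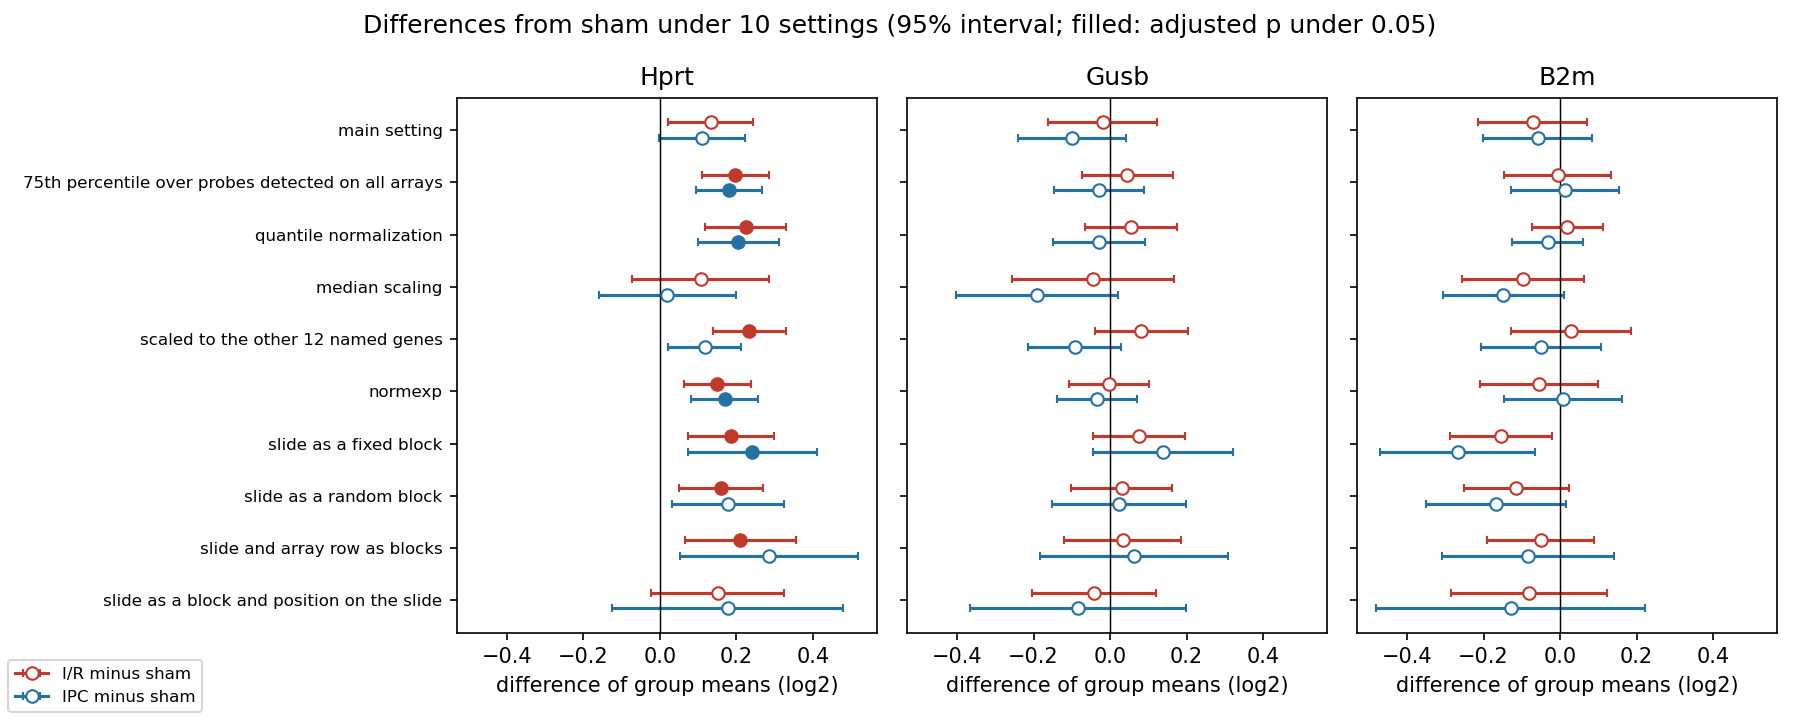
Differences from sham (x axis, log2, with 95% interval) of Hprt, Gusb and B2m under 10 settings (y axis), red for I/R and blue for IPC, filled where the adjusted p was under 0.05. Hprt lies above 0 throughout, with filled points under several settings, while the points of Gusb and B2m are all open and lie on both sides of 0.

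The I/R group, the only one on both slides, split by slide. Gusb was higher by 0.24 on slide 2 (mean 3.25, 3 arrays) than on slide 1 (3.01, 2 arrays), with an adjusted p of 0.0489, so that 1 of the 3 genes passed, where 9.6% of probes did. B2m went the other way, with a difference of -0.21 (adjusted p 0.0958), and Hprt differed by 0.13 (adjusted p 0.190). In this group the arrays of slide 2 all lie in row 2 and those of slide 1 in row 1, and separate mice may also differ, so slide, row and mouse cannot be told apart.

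The second question is whether the 3 genes moved together, since a scaling factor of an array cancels in the difference of 2 genes on it. Hprt rose relative to Gusb in both groups with ischaemia, by a ratio of 1.11 in I/R and 1.16 in IPC against sham. Sham and IPC share no slide, and with arrays exchanged only within slides the IPC difference was 0.10 in place of 0.21 (log2) and did not pass (exact permutation p adjusted over the comparisons 0.124). Over all arrays Hprt also rose relative to B2m in IPC, by a ratio of 1.12, a call lost when some single IPC arrays were left out. The I/R minus sham difference of this pair, 0.20 (log2), did not pass (exact permutation p adjusted over the comparisons 0.125). No change of Gusb relative to B2m passed over all arrays. Such a difference holds both probes' own brightness, so only its change between arrays can be read.

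Hprt minus Gusb was 3.04, 3.04, 3.04, 3.05 and 3.01 on sham arrays 1 to 5 (mean 3.04 ± 0.0159, SD, n = 5). It was 3.15, 3.14, 3.15, 3.26 and 3.24 on the I/R arrays (3.19 ± 0.0587, SD, n = 5). It was 3.32, 3.32, 3.22, 3.20 and 3.18 on the IPC arrays (3.25 ± 0.0678, SD, n = 5). Every I/R and every IPC array lay above every sham array, while I/R and IPC overlapped. I/R minus sham was 0.15 (SE 0.0272, ratio 1.11), the exact two-sided permutation p was 0.00794, the smallest that 252 splits allow, and the p adjusted over the 9 comparisons was 0.0357. IPC minus sham was 0.21 (SE 0.0312, ratio 1.16, exact p 0.00794, adjusted 0.0357), and IPC minus I/R was 0.058 (SE 0.0401, exact p 0.190, adjusted 0.343). These comparisons share arrays of a group. Among the other 102 pairs of the 15 named genes the groups did not overlap in 51% in I/R against sham, 30.4% in IPC against I/R and 57.8% in IPC against sham, so 1 of 3 pairs in each contrast with sham is a smaller share than among the other named pairs.

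Hprt minus B2m was -2.03, -2.002, -2.02, -1.98 and -1.83 on the sham arrays (mean -1.97 ± 0.0832, SD, n = 5). It was -1.63, -1.63, -1.63, -1.97 and -1.98 on the I/R arrays (-1.77 ± 0.187, SD, n = 5). It was -1.84, -1.83, -1.81, -1.78 and -1.77 on the IPC arrays (-1.81 ± 0.0298, SD, n = 5). Sham array 5 stood above the other sham arrays and within the range of the IPC arrays, and the I/R arrays formed separate sets on the 2 slides. IPC minus sham was 0.17 (SE 0.0395, ratio 1.12, exact permutation p 0.0159, adjusted 0.0476), I/R minus sham was 0.20 (SE 0.0916, exact p 0.0556, adjusted 0.125) and IPC minus I/R was -0.036 (SE 0.0847, exact p 0.690). The call in IPC rests on 10 arrays: with IPC array 2, 3, 4 or 5 left out, the adjusted p was 0.0714 and the difference 0.16 to 0.17.

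Gusb minus B2m was -5.08, -5.04, -5.06, -5.04 and -4.84 on the sham arrays (mean -5.01 ± 0.0966, SD, n = 5). It was -4.79, -4.77, -4.78, -5.23 and -5.22 on the I/R arrays (-4.96 ± 0.245, SD, n = 5). It was -5.16, -5.14, -5.03, -4.98 and -4.95 on the IPC arrays (-5.05 ± 0.0962, SD, n = 5). The I/R arrays held both the highest and the lowest values of all 15, with sham and IPC between. I/R minus sham was 0.052 (SE 0.118), IPC minus I/R -0.094 (SE 0.118) and IPC minus sham -0.042 (SE 0.0610), with exact permutation p of 0.667, 0.437 and 0.524. With such errors the values do not show that the lysosomal and the MHC light chain gene moved alike.

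The values were others with slide held fixed. When arrays were exchanged only within a slide, Hprt minus Gusb kept its I/R minus sham difference at 0.11 (exact permutation p adjusted over the comparisons 0.0321), and its IPC minus sham difference was 0.10 (0.124). Hprt minus B2m then had I/R minus sham at 0.34 (0.0321) and IPC minus sham at 0.51 (0.00765). Gusb minus B2m had 0.23 (0.0321) and 0.41 (0.0115), both past the threshold that it missed over all arrays. For sham and IPC, which share no slide, such a value is the sum of a step on each slide through the I/R arrays.

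The place of an array on its slide moved with all 3 within-array differences, a pattern noticed in these values and given here as a description. Along positions 1 to 8 of slide 2, Gusb minus B2m read -5.08, -5.04, -5.06 and -5.04 in row 1 and -4.84, -4.79, -4.77 and -4.78 in row 2. Along positions 1 to 7 of slide 1 it read -5.23, -5.22, -5.16 and -5.14 in row 1 and -5.03, -4.98 and -4.95 in row 2. On both slides every array of row 2 lay above every array of row 1, whatever its group. Within sham, row 2 (1 array) lay above row 1 (4 arrays) by 0.21, and within IPC, row 2 (3 arrays) lay above row 1 (2 arrays) by 0.17. The mean of both was 0.19. Since the split by row was chosen from these same values, no test is given for it, and its sham side rests on sham array 5 alone.

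B2m itself was lower in row 2, with row 2 minus row 1 at -0.16 in sham and -0.11 in IPC (mean -0.14). For Gusb the mean of both groups was 0.054 and for Hprt -0.023. Hprt minus Gusb was lower in row 2 (row 2 minus row 1 was -0.032 in sham and -0.12 in IPC), and Hprt minus B2m was higher (0.18 and 0.045). The mean row difference of both groups was 0.19 for Gusb minus B2m and -0.076 for Hprt minus Gusb. Between IPC and sham, Hprt minus Gusb differed by 0.21. The part of the row in the group differences cannot be told apart from the group for most arrays, since only 2 rows hold more than 1 group.

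In those 2 rows the groups can be set side by side, and the values are given without a test. In row 2 of slide 2, the 3 I/R arrays minus the 1 sham array gave 0.17 for Hprt, 0.037 for Gusb and -0.024 for B2m. In the same row Hprt minus Gusb was 0.13 higher in I/R, Hprt minus B2m 0.20 higher and Gusb minus B2m 0.061 higher. In row 1 of slide 1, the 2 IPC arrays minus the 2 I/R arrays gave 0.094 for Hprt, 0.027 for Gusb and -0.047 for B2m. There Hprt minus Gusb was 0.067 higher in IPC, Hprt minus B2m 0.14 higher and Gusb minus B2m 0.075 higher. Over both rows of slide 2, the I/R minus sham differences of the 3 pairs were 0.11, 0.34 and 0.23, in the same order. Within row 2 they were 0.13, 0.20 and 0.061. Those of row 2 rest on sham array 5, which stood apart from the other sham arrays in Hprt minus B2m. Over all arrays Hprt minus Gusb had 0.15 and Hprt minus B2m 0.20. The latter joins I/R means of -1.63 on slide 2 and -1.97 on slide 1. The IPC minus I/R differences in row 1 of slide 1 were near those over all arrays for Hprt minus Gusb (0.067 and 0.058). They were of opposite sign for Hprt minus B2m (0.14 and -0.036) and Gusb minus B2m (0.075 and -0.094). A linear fit of group, slide and position gave I/R minus sham differences of 0.19 (SE 0.0348) for Hprt minus Gusb, 0.23 (SE 0.0429) for Hprt minus B2m and 0.039 (SE 0.0526) for Gusb minus B2m. Its slope for Gusb minus B2m was 0.048 per position. This fit was chosen after the position pattern was seen, so the slope is a description and no test of it. It also draws a straight line through values that stepped between rows.

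For the level of Hprt the same adjustments gave an I/R minus sham difference of 0.21 with slide and row as blocks (limma adjusted p 0.0448) and of 0.15 with slide as a block and position as a number (adjusted p 0.269). Fewer probes passed in these fits, 19.4% and 12.4% of those tested in I/R against sham. Gusb and B2m passed in neither. Both fits were chosen after the values were seen.

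**Figure D3:**
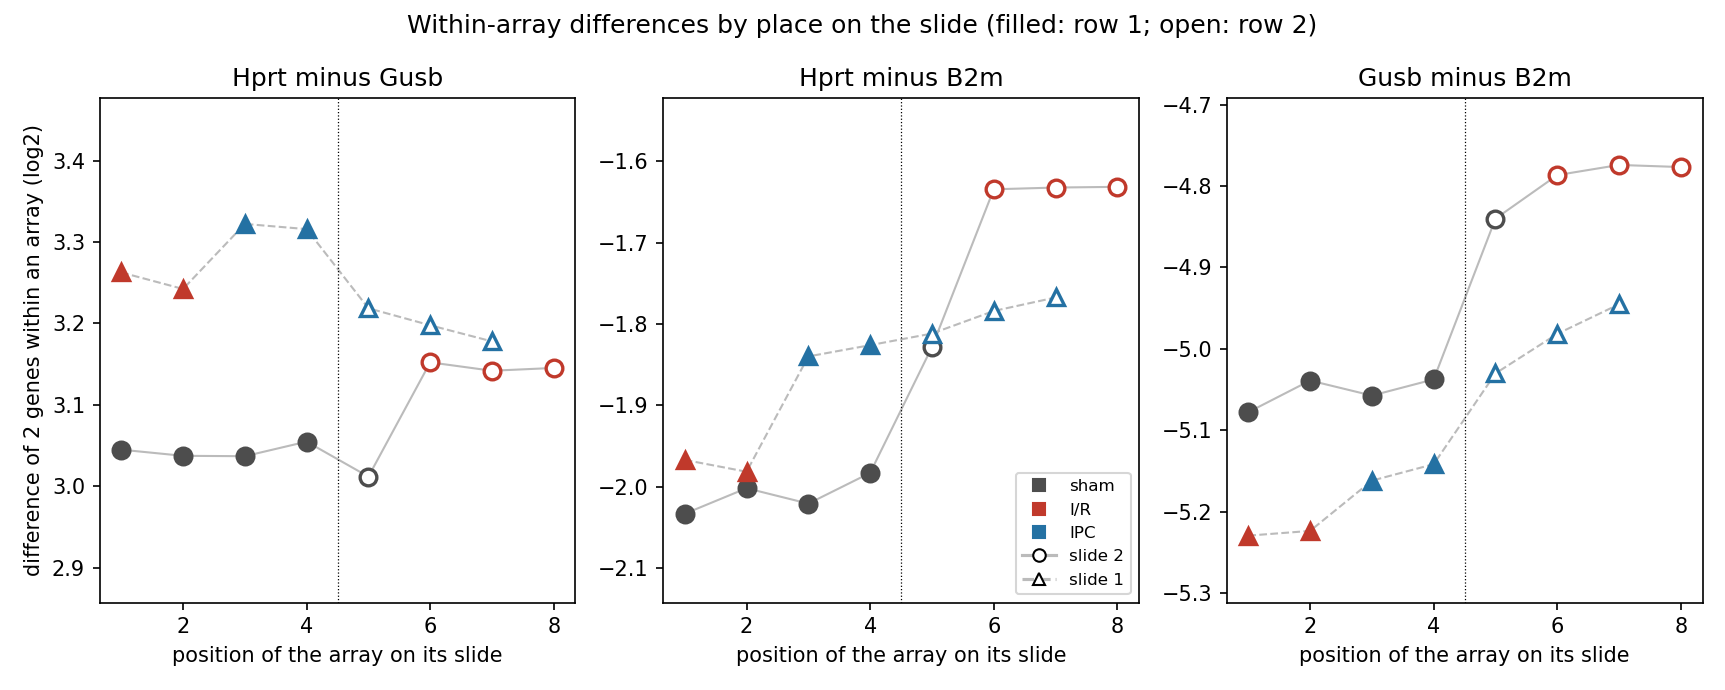
Within-array difference of 2 genes (y axis, log2) against the position of the array on its slide (x axis), coloured by group, with circles and solid lines for slide 2, triangles and dashed lines for slide 1, filled symbols for row 1 and open symbols for row 2. Gusb minus B2m steps up from row 1 to row 2 on both slides, while Hprt minus Gusb of the sham arrays stays between 3.01 and 3.05, below all I/R and IPC arrays.

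The third question is how level the 3 genes were beside other genes. Over all 15 arrays the SD was 0.0880 for Hprt, 0.0969 for B2m and 0.101 for Gusb. These are ranks 3, 4 and 5 of the 15 named genes, after Gk (0.0714) and G6pd2 (0.0871). Gk and G6pd2 are dim probes, with ratios of signal to background of 7.98 to 12.1 and 5.13 to 6.18. Whether their dimness lowers their SD was not tested. The SD of Actb was 0.291 and that of Tfrc 0.283. The order of the 3 depended on the scaling. Quantile normalization gave 0.122 for Hprt, 0.0834 for Gusb and 0.0547 for B2m, and normexp gave 0.0914, 0.0664 and 0.111. Median scaling gave 0.122, 0.164 and 0.113, so that none of the 3 was the most level throughout. The spread between arrays within groups ordered them otherwise: 0.0696 for Hprt (rank 6), 0.0983 for Gusb (rank 13) and 0.0988 for B2m (rank 14). For Gusb and B2m this pooled spread was about as large as that over all arrays, and larger than for most named genes. It was largest in I/R, the only group on both slides. The SD of Gusb was 0.144 in I/R, 0.0514 in sham and 0.0751 in IPC, and that of B2m 0.128, 0.0844 and 0.0757.

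A probe of 20 spots has less noise than one of 1 spot, so for comparison with the rest of the array single spots were used. The median SD of 1 spot over the 15 arrays was 0.0990 for Hprt, 0.106 for Gusb and 0.107 for B2m, beside a median of 0.225 over 34970 tested probes with 1 spot. Among those, 6.99% had a lower SD than Hprt, 9.39% than Gusb and 9.69% than B2m. A probe's SD also depends on its brightness, and the 3 genes are bright.

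The mean SD of a gene's difference from each other named gene, the measure of pairwise stability, was 0.181 for Gusb (rank 7 of 15), 0.188 for B2m (rank 8) and 0.195 for Hprt (rank 11), and Tbp was lowest (0.161). Within groups the same measure ordered the 3 otherwise: 0.0932 for Hprt (rank 3), 0.107 for Gusb (rank 9) and 0.142 for B2m (rank 14). Over all arrays the measure favours a gene that moves with many of the others, and 7 of the 15 fell in I/R against sham. The within-array SD over 15 arrays was 0.104 for Hprt minus Gusb, 0.144 for Hprt minus B2m and 0.155 for Gusb minus B2m. Under quantile normalization, which reshapes each array's distribution, that of Gusb minus B2m was 0.0598.

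**Figure D4:**
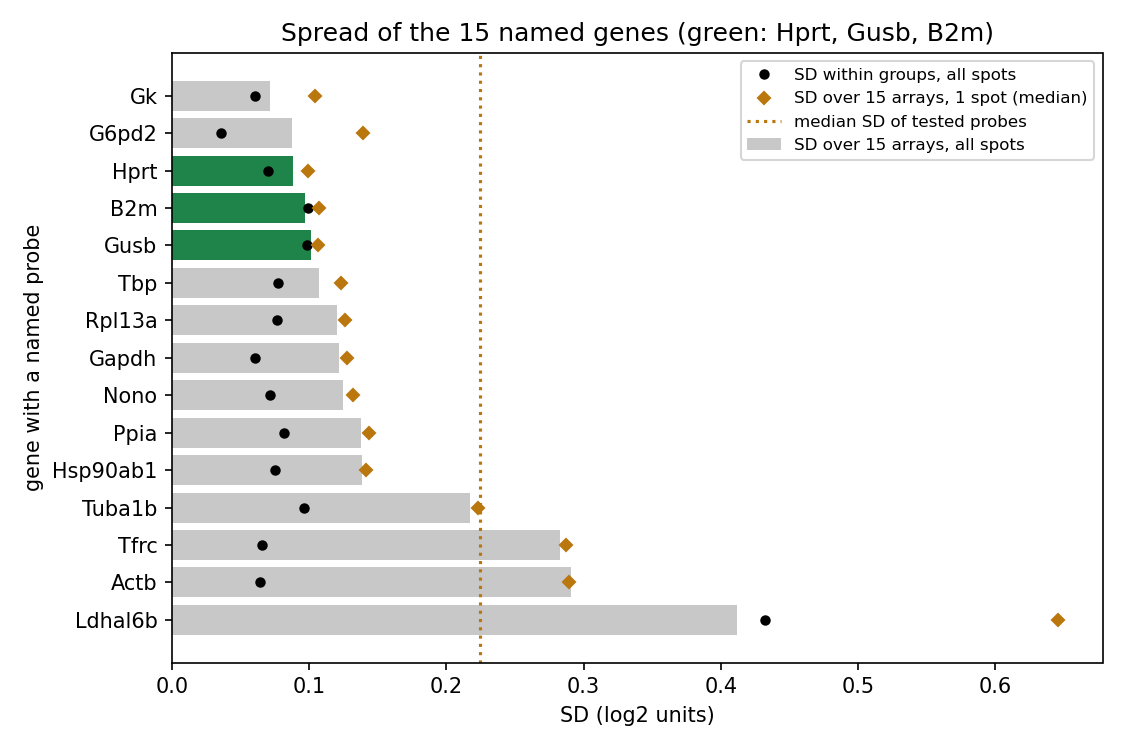
SD in log2 units (x axis) of the 15 named genes (y axis): bars over 15 arrays, green for Hprt, Gusb and B2m, black points within groups, diamonds for a single spot, dotted line the median of tested probes. The 3 green bars hold ranks 3 to 5 from the top, and the black points of Gusb and B2m lie at the end of their bars.

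Likeness to the other 12 named genes was measured as the SD of the within-array difference over 15 arrays. A low SD counts as near, but 2 genes of small spread also give one without varying together. Gk had the lowest SD of the 15 named genes (0.0714). For Hprt the nearest of the 12 were Gk, glycerol kinase (0.121), and Tbp, the TATA-binding protein (0.140). For Gusb they were Nono, a nuclear RNA-binding protein (0.0913), and Rpl13a, a ribosomal protein (0.0948). For B2m they were Gapdh, a glycolytic enzyme (0.0969), and Gk (0.106). Least like each was Ldhal6b, a dim probe, with 0.440, 0.449 and 0.448. Among the 3 themselves, the SD of 0.104 for Hprt minus Gusb was lower than that of Hprt with any of the 12, while for Gusb and B2m the nearest of the 12 were nearer than the other 2 members.

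The last question is what a choice of reference does to other genes. With the mean of Hprt, Gusb and B2m as reference, 9 of the other 12 named genes passed in I/R against sham (2 higher, 7 lower), 3 in IPC against I/R (all higher) and 8 in IPC against sham (2 higher, 6 lower). Of all probes 32.4%, 9.51% and 30.7% passed with that reference. The mean of the 3 was 5.85 ± 0.0449 in sham, 5.87 ± 0.0645 in I/R and 5.84 ± 0.0605 in IPC (SD, n = 5 each). Its SD over the 15 arrays was 0.0546, below that of each gene alone. Averaging by itself lowers the SD of values that do not vary together, so this is no measure of joint stability.

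Single references gave other counts. Hprt alone gave 10 of 12, 3 and 10 for the same 3 comparisons (40.3%, 9.58% and 37.8% of probes), Gusb alone 8, 5 and 4 (28.7%, 11% and 29%), and B2m alone 3, 1 and 2 (20.6%, 2.78% and 19.3%). With Hprt as reference in I/R against sham, 3038 probes were higher and 11062 lower, whereas with B2m 4828 were higher and 2374 lower, and with the array's 75th percentile 5095 and 5746. Dividing by Hprt shifts every other gene in I/R down by the Hprt difference of 0.13 (log2).

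Folds shifted accordingly while the largest changes stayed on their side. Actb, cytoplasmic actin, was 1.40-fold higher in I/R than in sham against Hprt, 1.56-fold against Gusb, 1.61-fold against B2m, 1.52-fold against the mean of the 3 and 1.53-fold against the 75th percentile. Tfrc, the transferrin receptor, was 1.45-fold higher in IPC than in sham against Hprt, 1.68-fold against Gusb, 1.63-fold against B2m, 1.59-fold against the mean of the 3 and 1.57-fold against the 75th percentile. Each of these 10 differences passed (largest limma adjusted p 3.53e-05 for Actb and 4.97e-05 for Tfrc). The SE of the Tfrc difference was 0.0313 (log2) against Hprt and 0.0859 against B2m.

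**Figure D5:**
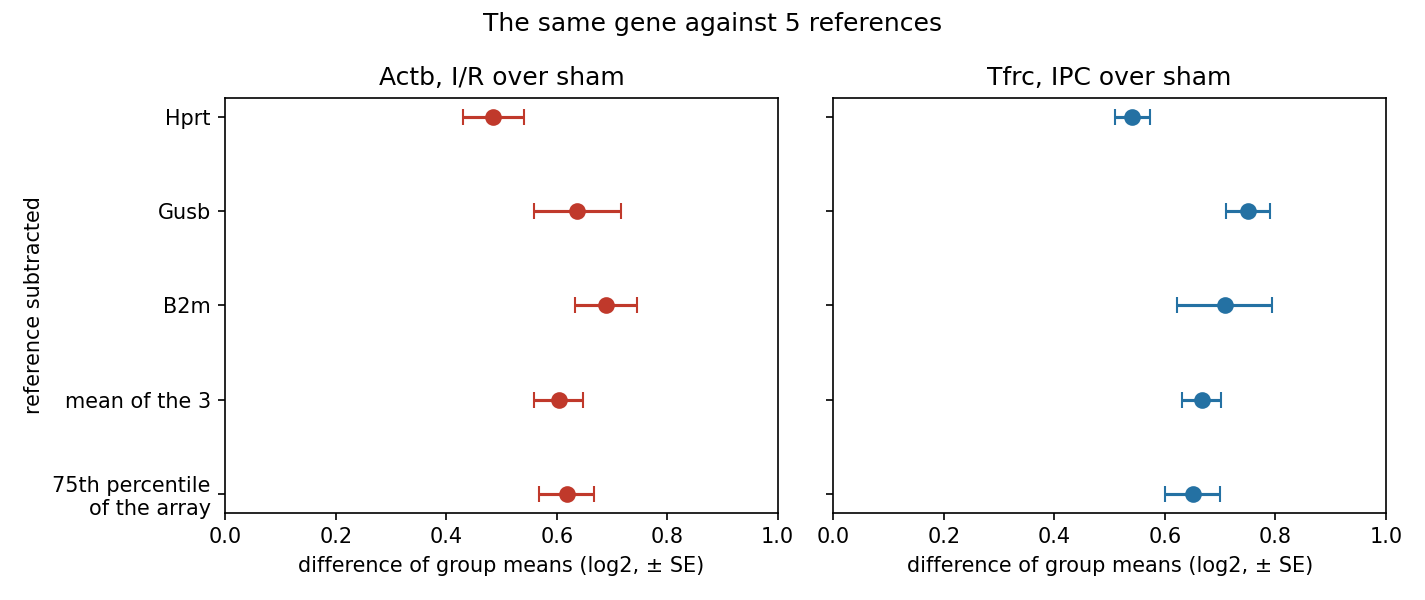
Difference of group means (x axis, log2, with SE) of Actb in I/R against sham and of Tfrc in IPC against sham, with 5 references subtracted (y axis). Both differences are smallest with Hprt as reference.

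The spots behind these values were bright and even. On each array all 60 spots of the 3 genes were well above background, none was saturated, and 0 to 8 were left out as marked outliers. The ratio of signal to background was 408 to 699 for Hprt, 51.9 to 73.4 for Gusb and 1519 to 2510 for B2m. The SD between spots of a probe on an array had a median of 0.0528, 0.0355 and 0.0608, with a standard error of a mean of at most 0.0187, 0.0119 and 0.0175. The SD between arrays of a group, 0.0424 to 0.144 for the levels above, was larger than these standard errors. For Hprt in sham it (0.0424) was below the median SD between spots (0.0528). I/R arrays 1 to 3 were closer together than such standard errors in Hprt minus B2m, which lay between -1.634 and -1.631 there.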

How the data were processed

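Per the file headers, the deposited files hold spot intensities. They were written by Agilent Feature Extraction 11.0.1.1, and the grid names build mm9. The values used were those of the processed signal, which per the file headers is background-corrected. Control, negative-control and marked outlier spots were left out. The log2 signal minus the array's 75th percentile was averaged over a probe's spots, from deposited intensities. The 34985 probes that exceeded background clearly on 5 or more of the 15 arrays were tested together with limma 3.58.1 in R 4.3.3, 1 mean per group, with Benjamini-Hochberg adjustment and calls at an adjusted p under 0.05. Within-array differences used exact two-sided permutation tests, adjusted over 9 comparisons. Scripts were tested on simulated data. Figures were drawn with matplotlib 3.10.9.

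Slides were told apart by scan time, and the row and column of an array were read from a header tag. Other named genes given are the nearest and farthest by the SD of the within-array difference, and the largest changes in I/R and IPC against sham. Genes of the reference list were also named. The members and lists were chosen with earlier results of these data known. Probe sequences were not used here. The number of arrays limits the precision.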

Additional observations from a re-analysis of the deposited data

Results flagged for a closer look

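In 18 sets of 5 arrays (3 genes and 3 within-array differences in 3 groups), the array farthest out was set against the rest by the ratio of its gap to the whole range, with 0.71 as the limit. Chance sets apart about 1 in 20 such sets. Sham array 5 stood apart in Hprt minus B2m, at -1.83 beside -2.03 to -1.98 on the other sham arrays (gap over range 0.755). It also stood apart in Gusb minus B2m, at -4.84 beside -5.08 to -5.04 (0.831). Both rest on the same low B2m value (8.05), and sham array 5 is the only sham array in row 2 of its slide.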

How the results depend on the processing

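For Hprt, Gusb and B2m the alternatives were run on 9 differences of level, 9 within-array differences, 6 SDs over 15 arrays and 3 counts. The cause of a change below was not tested.

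Hprt passed in I/R minus sham under quantile normalization (0.22), the detected-probe percentile (0.20), scaling to the other 12 named genes (0.23), normexp (0.15), trended robust moderation (0.13), slide as a fixed block (0.19) or random block (0.16), within one slide (0.19) and slide and row as blocks (0.21, added after seeing the data). In IPC minus sham it passed under quantile (0.21), detected-probe percentile (0.18), normexp (0.17) and the fixed slide block (0.24). Its IPC minus I/R difference, uncalled, turned positive with normexp (0.0195), the fixed (0.0561) or random (0.0180) slide block, within one slide (0.0561), slide and row (0.0745), and slide and position (0.0257).

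Uncalled signs also turned for Gusb. In I/R minus sham they were 0.0556 (quantile), 0.0457 (detected-probe percentile), 0.0813 (other 12 genes), 0.0764 (fixed block and within one slide), 0.0306 (random block) and 0.0327 (slide and row). In IPC minus I/R they were 0.0622 (fixed block and within one slide) and 0.0294 (slide and row), and in IPC minus sham 0.14, 0.0241 and 0.0621 (fixed block, random block, slide and row). For B2m, I/R minus sham was 0.0193 (quantile) and 0.0290 (other 12 genes), and IPC minus sham was 0.0137 (detected-probe percentile) and 0.0081 (normexp). B2m IPC minus I/R was -0.0517 (quantile), -0.0503 (median scaling), -0.0800 (other 12 genes), -0.0093 (spots of the lower part of the array, added after seeing the data), -0.11 (fixed block and within one slide), -0.0521 (random block), -0.0342 (slide and row) and -0.0478 (slide and position).

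Of the within-array differences, Hprt minus Gusb in I/R minus sham passed in all 17 alternatives (0.11 to 0.17). In IPC minus sham it missed the threshold with permutation within slides (0.10), and its IPC minus I/R difference was -0.0060 within slides. Hprt minus B2m in I/R minus sham passed under quantile (0.21), permutation within slides (0.34) and within one slide (0.34), and its IPC minus I/R turned to 0.0322 (quantile) and 0.17 (within slides). Gusb minus B2m passed in I/R minus sham within slides (0.23), and turned to 0.17 in IPC minus I/R within slides and, in IPC minus sham, to 0.0035 (quantile) and 0.41 (permutation within slides). Within a slide, group and row cannot be told apart for most arrays.

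Leaving out 1 array at a time gave 0.10 to 0.17 for Hprt in I/R minus sham (called without I/R array 4) and -0.0570 to 0.0049 in IPC minus I/R. It gave -0.0581 to 0.0332 for Gusb in I/R minus sham and -0.0173 to 0.0603 for B2m in IPC minus I/R. Hprt minus B2m in IPC minus sham ranged from 0.15 to 0.20, not called without IPC array 2, 3, 4 or 5, and Gusb minus B2m from -0.0685 to 0.00081.

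With the 3 genes as reference, the counts of other named genes passing in I/R minus sham, 9, became 3 with B2m alone. In IPC minus I/R, 3 became 5 with Gusb, 1 with B2m and 5 with the slide block. In IPC minus sham, 8 became 4 with Gusb, 2 with B2m, 4 with the slide block and 5 with the replicate block. Replicate numbers did not visibly pair the arrays. Same-numbered arrays correlated from -0.37 to 0.51 (median -0.018), and differently numbered arrays from -0.53 to 0.50 (median -0.028). With the replicate block Hprt in I/R minus sham kept 0.13 (adjusted p 0.135), and no call on the level of a gene changed.

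Of the 6 SDs, 4 moved by over 1.5 times under some alternative. That of B2m (0.0969) was 0.0547 with quantile normalization, that of Gusb (0.101) was 0.0664 with normexp and 0.164 with median scaling, that of Gusb minus B2m (0.155) was 0.0598 with quantile normalization, and that of Hprt minus Gusb (0.104) was 0.0526 within groups.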
